A study of Mus musculus with 4 samples.

Results

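Transcripts of 10 genes of glucose uptake and glycolysis were followed through development of the mouse mammary gland. They are the glucose transporters Slc2a1 and Slc2a3, the hexokinases Hk1 and Hk2, the phosphofructokinases Pfkl and Pfkp, the aldolase Aldoa, the phosphoglycerate kinase Pgk1, the pyruvate kinase Pkm and the lactate dehydrogenase Ldha. They were chosen by symbol for their place in the pathway, out of 30406 gene identifiers counted at all 4 stages. The cells came from female WT C57B6 mice (C57 B6/N in the study's methods), taken as embryos on 3 successive days of development (E13.5, E14.5, E15.5) or as newborns on the day of birth (P0). At each stage mammary tissue of several animals was pooled, viable EpCAM+ and EpCAM- cells were sorted away from cells with the blood and endothelial surface proteins CD45, CD31 and Ter119, and 1 single-cell RNA-seq library was made. P0 glands were digested with other enzyme amounts than the embryonic rudiments and received an added red cell lysis step. With 1 library per stage there were no replicates, and a difference between stages cannot be told apart from one between libraries.

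Of 5896 cell barcodes, 1630 cells passed the filter of at least 5000 UMIs (unique molecular identifiers, distinct transcripts counted) and at most 6% mitochondrial UMIs. A cell was epithelial or mesenchymal by the larger of its summed keratin and Epcam UMIs and its summed collagen UMIs, and 3 cells with equal sums were left out. In order of stage this gave 98, 45, 532 and 230 epithelial and 135, 31, 283 and 273 mesenchymal cells. The summed depth of a group ran from 838030 UMIs (E14.5 mesenchyme) to 14293755 (E15.5 epithelium), and the median cell held 24268 to 26725 UMIs at E14.5 and E15.5 but 8743 and 9973 in the mesenchyme and epithelium of P0. Genes outside the tissue rule followed it. Cdh1 reached 147 to 539 CPM (UMIs per 1000000 of the group) in epithelium and at most 15.8 CPM in mesenchyme, and Pdgfra 161 to 264 CPM in mesenchyme and at most 1.53 CPM in epithelium. In 0 to 6 cells per group the opposite sum was less than 5-fold smaller. The E13.5 and E15.5 libraries shared 1 barcode, as did E14.5 and E15.5, none of them among the kept cells.

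Glucose enters most cells through transporters of the Slc2a family. A hexokinase then traps it as glucose 6-phosphate, phosphofructokinase commits it to glycolysis, aldolase splits the sugar, phosphoglycerate kinase and pyruvate kinase make ATP, and lactate dehydrogenase A turns pyruvate into lactate while restoring NAD+. Several steps have isoforms of different genes. Slc2a1 encodes the widespread transporter GLUT1 and Slc2a3 the high-affinity GLUT3 known from neurons and placenta. Hk1 is the broadly expressed hexokinase, while Hk2 is the inducible one of muscle, fat, tumours and tissue low in oxygen. Hypoxia-inducible factor is known to bind the core sequence ACGTG and to raise transcription of many of these genes.

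The start regions of Hk2 and Slc2a1 are shown because these genes had large differences between tissues or stages, and that of Ldha because it held the most copies of that core. They are RefSeq promoter windows of the GRCm38.p6 assembly, from 250 bases before to 50 bases after a transcription start, each written 5′ to 3′ along its gene. Capitals mark ACGTG or its reverse complement CACGT.
Hk2, chr6:82774405-82774704, minus strand: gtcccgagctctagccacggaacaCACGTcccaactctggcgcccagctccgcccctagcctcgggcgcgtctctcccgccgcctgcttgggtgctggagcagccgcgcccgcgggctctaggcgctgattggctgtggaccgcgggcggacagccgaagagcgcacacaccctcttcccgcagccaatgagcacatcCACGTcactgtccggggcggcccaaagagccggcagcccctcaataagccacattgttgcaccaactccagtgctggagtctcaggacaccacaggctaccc
Slc2a1, chr4:119108495-119108794, plus strand: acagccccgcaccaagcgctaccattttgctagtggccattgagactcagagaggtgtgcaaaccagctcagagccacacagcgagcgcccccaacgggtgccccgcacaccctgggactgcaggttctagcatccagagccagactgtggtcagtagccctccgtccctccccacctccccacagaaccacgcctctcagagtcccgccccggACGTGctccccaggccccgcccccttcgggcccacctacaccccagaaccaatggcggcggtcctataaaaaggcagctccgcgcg
Ldha, chr7:46845554-46845853, plus strand: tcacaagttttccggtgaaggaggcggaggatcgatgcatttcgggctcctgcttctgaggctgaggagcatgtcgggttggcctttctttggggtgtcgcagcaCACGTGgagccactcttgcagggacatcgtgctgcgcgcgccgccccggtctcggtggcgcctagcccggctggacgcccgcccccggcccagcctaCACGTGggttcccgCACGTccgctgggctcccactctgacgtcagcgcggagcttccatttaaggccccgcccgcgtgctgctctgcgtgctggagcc
Pgk1, 41 bases around the match 150 bases before the start, in the window chrX:106186850-106187149, plus strand: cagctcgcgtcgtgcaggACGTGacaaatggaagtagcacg

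Windows were found for 9 of the 10 genes, 14 windows in all, and not for Slc2a3. ACGTG on either strand stood in 8 of the 14 windows, those of 7 genes (Slc2a1, Hk1, Hk2, Aldoa, Pgk1, Pkm and Ldha), and in 19.6% of 32851 mouse windows of the same length. The Pfkl and Pfkp windows did not hold these letters, and 2 of the Aldoa windows overlap and share their match. Ldha had 5 matches, of which 2 overlapping pairs form the palindromic E-box CACGTG, a motif found in 7.15% of all windows and in no other window of these genes. GGGCGG, the GC box bound by Sp1, was in 9 of the 14 windows, those of 8 genes, against 35.7% of all windows, and TATAAA was in that of Slc2a1 alone against 13.6%. A match describes the letters of a window and does not show binding.

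Slc2a1 (chr4:119108711-119137983, plus strand) was higher in epithelium than in mesenchyme of the same stage, least so at P0, and in E13.5 epithelium stood below Slc2a3. In epithelial cells its level, in order of stage from E13.5 to P0, was 179 CPM (exact 95% Poisson interval 161 to 198), 47.9 (36.6 to 61.5), 102 (96.8 to 107) and 94.5 (83.1 to 107). In mesenchymal cells it was 27.4, 19.6 and 71.0 CPM on E13.5, E15.5 and P0. Only 13 UMIs were counted in the E14.5 mesenchyme, which put it between 8.26 and 26.5 CPM. The 3 embryonic mesenchymal levels were the lowest of the 8, and the P0 mesenchyme stood at 71.0 CPM (60.9 to 82.2) against 47.9 in the E14.5 epithelium. These intervals, like all others here, cover counting error within a library only.

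Slc2a3 (chr6:122727809-122801640, minus strand) was a gene of the E13.5 epithelium. It reached 284 CPM there (261 to 308), above Slc2a1 in the same cells. Elsewhere it was at 11.2 CPM in E13.5 mesenchyme, 7.85 and 8.35 CPM in E14.5 epithelium and mesenchyme, 4.97 and 8.54 CPM at E15.5, and 4.39 CPM in P0 mesenchyme. The counts behind these low levels were 7 to 71 UMIs. In P0 epithelium 0 of 2614403 UMIs were of Slc2a3, which allows a level of up to 1.15 CPM (3 counts). Apart from E13.5 epithelium and P0 epithelium, neighbours in this order did not differ beyond counting error.

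The composition of the glucose transporter pair differed between groups. Slc2a1 made up 38.6% of the Slc2a1 and Slc2a3 UMIs in E13.5 epithelium (exact 95% binomial interval 35.5 to 41.8). The share was 85.9% (of 71 UMIs) a day later, 95.4% (94.2 to 96.4) in the E15.5 epithelium, and all 247 UMIs were of Slc2a1 in P0 epithelium, for which the interval began at 98.5%. In mesenchyme the share in order of stage was 71.0% (60.6 to 79.9), 65.0% (40.8 to 84.6, of 20 UMIs), 69.6% (62.8 to 75.8) and 94.2% (89.8 to 97.1). The epithelial interval at E13.5 lay below all others except that of E14.5 mesenchyme. It was not shared by all E13.5 epithelial cells, since those with more bud than skin markers had a share of 86.5% (80.7 to 91.1). Of 8 further Slc2a transporters and the sodium-coupled transporter Slc5a1, none reached the mean level of 10 CPM asked of a gene in any comparison. The insulin-responsive transporter Slc2a4 was highest in E14.5 epithelium, at 10.2 CPM.

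**Figure D1:**
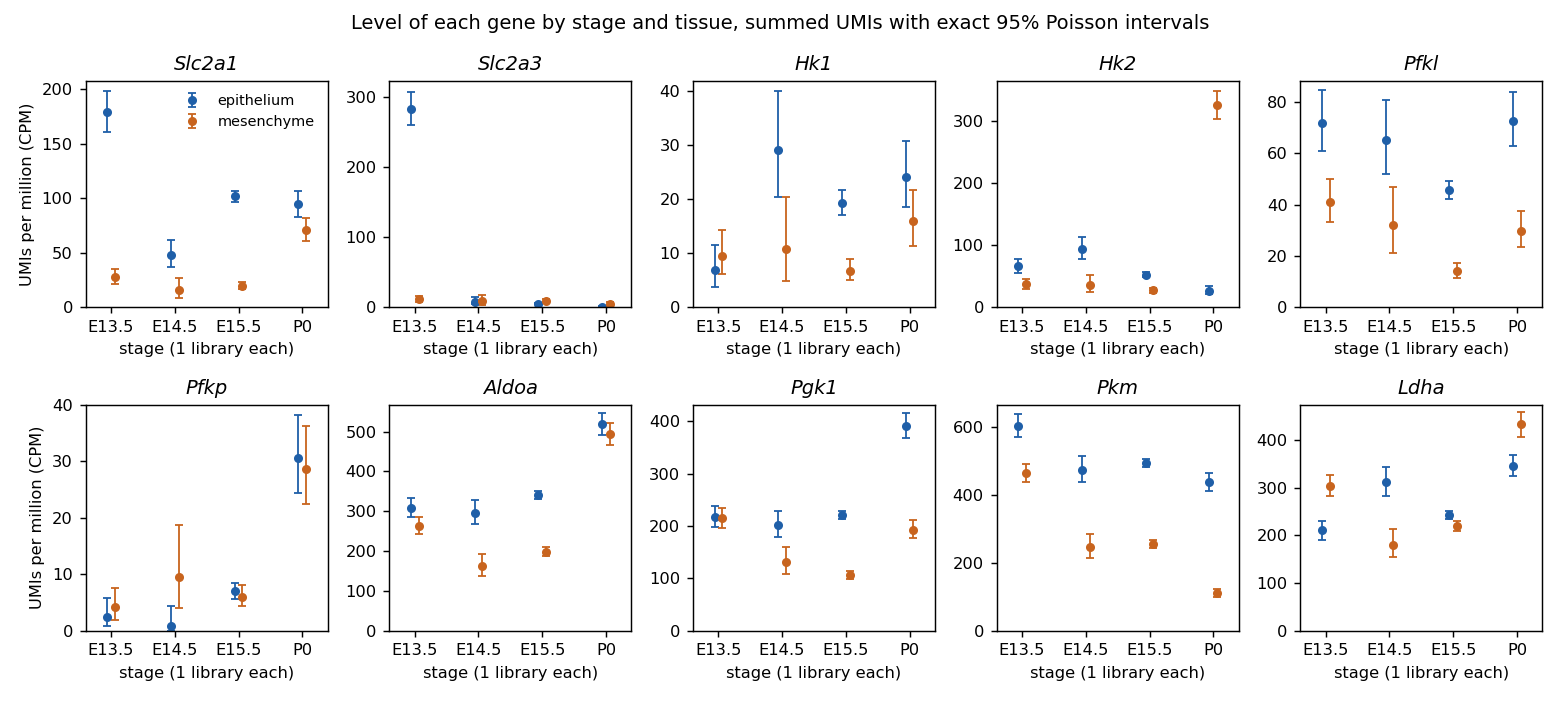
Each panel plots 1 gene, with stage on the x axis and its level in CPM on the y axis, starting at 0. Points are summed levels of the epithelial (blue) and mesenchymal (orange) cells of 1 library and bars are exact 95% Poisson intervals. Slc2a3 stands at 284 CPM in E13.5 epithelium and at most 11.2 elsewhere, and Hk2 at 325 CPM in P0 mesenchyme and at most 94.2 elsewhere.

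The Slc2a3 transcripts of E13.5 epithelium were held by part of the cells. Of the 98 cells 52 had a UMI of it, 21 had 10 or more, and the highest had 51. The 10 cells with most UMIs held 322 of 580. Slc2a1, in contrast, was found in 86 of the 98 cells, and 45 cells had UMIs of both transporters. After every cell was thinned to 5000 UMIs, 38.8% (29.1 to 49.2) of these cells had a UMI of Slc2a3, against 53.1% before thinning, and 4.44% (1.65 to 9.42) of the E13.5 mesenchymal cells did, against 16.3%. The medians of these groups before thinning were 18968 and 16438 UMIs.

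Most Slc2a3 transcripts were in cells with markers of the surface of the skin. When the E13.5 epithelium was divided by the larger of a bud marker sum (such as Ndnf, Wnt10b and Pthlh) and a sum of epidermal and peridermal markers, each scaled to its mean, Slc2a1 made up 86.5% (80.7 to 91.1) of the transporter pair in the 48 bud-marker cells and 27.0% (23.8 to 30.3) in the 50 others. A division in 3, made after these values were seen, separated epidermal keratins (Krt15, Krt1, Krt10) from genes of the periderm, the transient outer layer of the embryonic skin (Gabrp, Hopx, Krt4, Krt17). Slc2a3 was then at 19.7 CPM (9.44 to 36.2) in 28 bud-marker cells, at 49.4 (36.7 to 65.2) in 41 epidermis-marker cells and at 996 (913 to 1086) in 29 periderm-marker cells. All 29 of the last had a UMI of it, with a median of 14 per cell.

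The other early steps differed along the same division, while the later steps followed other orders. Hk2 was at 132 CPM (103 to 167) in the periderm-marker cells against 51.2 (33.4 to 75.0) in the bud-marker and 39.5 (28.2 to 53.8) in the epidermis-marker cells, and Pfkl at 117 CPM (89.4 to 150.1) against 55.1 and 57.3. Slc2a1 was at 217 and 198 CPM in the periderm- and epidermis-marker cells, both above the 102 CPM (76.4 to 134) of bud-marker cells. Aldoa and Pgk1 were instead highest in epidermis-marker cells, at 387 and 262 CPM, and lower in periderm-marker cells, at 226 and 182 CPM, and in bud-marker cells, at 238 and 165 CPM. Pkm ran from 522 to 653 CPM over the 3 groups. Between 4 and 17 cells of a group lay within 2-fold of the next marker sum, so these are ranges of marker level and not cell types. The E13.5 epithelial cells with summed early response and heat shock transcripts (Fos, Jun, Egr1, Hspa1a, Hspa1b, Atf3) above the median held 2.35 times (1.97 to 2.82) the Slc2a3 of the rest, and the part of these transcripts in the result was not tested.

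**Figure D2:**
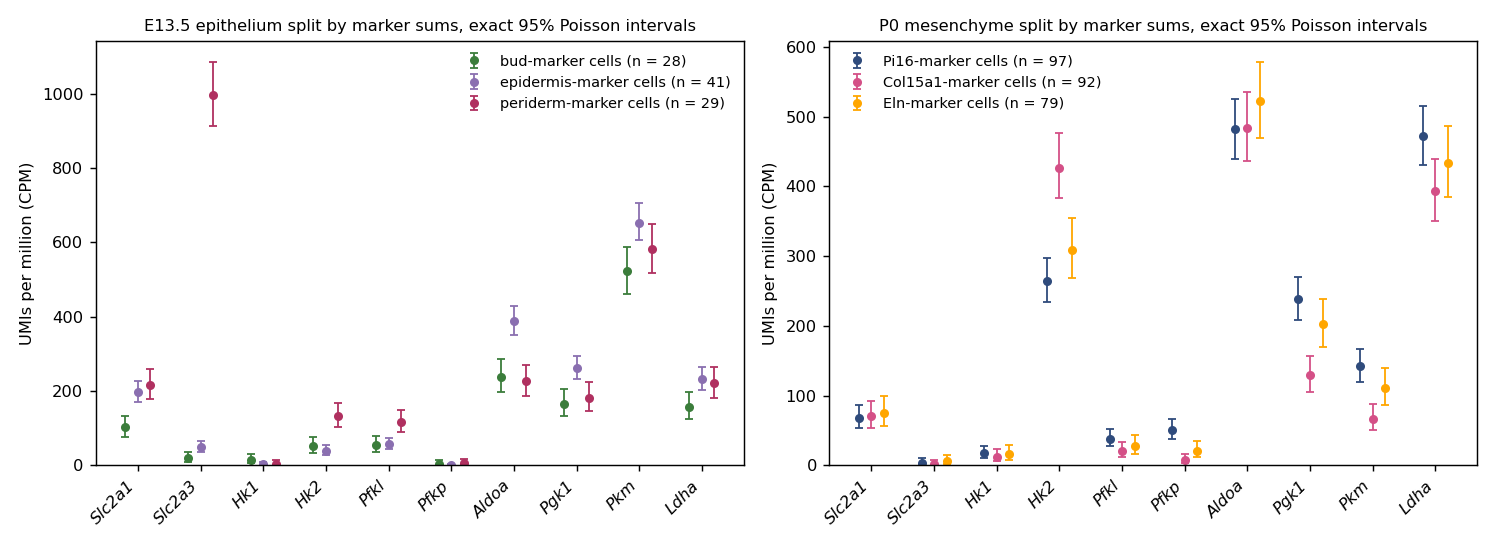
The x axis lists the 10 genes and the y axis their level in CPM, starting at 0, with E13.5 epithelium on the left and P0 mesenchyme on the right. Points are summed levels of the cells of 1 marker group and bars exact 95% Poisson intervals. On the left, Slc2a3 is at 996 CPM in periderm-marker cells and at most 49.4 in the others. On the right, Hk2 lies between 265 and 427 CPM in all 3 fibroblast marker groups.

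Hk2 (chr6:82725025-82774454, minus strand) was the main hexokinase of the early gland and rose steeply in the newborn mesenchyme. In epithelium it was at 66.1 (55.4 to 78.3), 94.2 (78.1 to 113), 52.0 (48.3 to 55.9) and 26.4 CPM (20.5 to 33.4) from E13.5 to P0. In mesenchyme it was at 36.5, 35.8 and 27.0 CPM at the embryonic stages and at 325 CPM at P0 (303 to 348). The P0 mesenchyme lay above every other group, while the P0 epithelium, of the same library, was at the low end with the E15.5 mesenchyme, from which it did not differ beyond counting error. Hk1 (chr10:62268855-62379908, minus strand) had fewer UMIs than Hk2 in all 8 groups, although in P0 epithelium, with 63 against 69 UMIs, they did not differ beyond counting error. Hk1 was at 6.75 to 29.1 CPM, highest in E14.5 epithelium, and its neighbours in order did not differ beyond counting error.

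The hexokinase pair diverged between the tissues. Hk2 made up 90.6% (84.7 to 94.8), 76.4% (69.0 to 82.8), 72.9% (70.1 to 75.6) and 52.3% (43.4 to 61.0) of the Hk1 and Hk2 UMIs of the epithelium from E13.5 to P0. In mesenchyme the share was 79.3% (70.5 to 86.4), 76.9% (60.7 to 88.9), 80.0% (74.4 to 84.8) and 95.3% (93.7 to 96.6). At P0 the intervals of the tissues were far apart, and at E14.5 they overlapped almost wholly. The E13.5 epithelial share was not even over its marker groups. In the division in 3 it was 76.5% (58.8 to 89.3, of 34 UMIs) in bud-marker cells. It was 90.9% (78.3 to 97.5) in epidermis-marker and 97.2% (90.2 to 99.7) in periderm-marker cells. In the bud-marker cells of the division in 2 it was 85.5% (74.2 to 93.1).

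**Figure D3:**
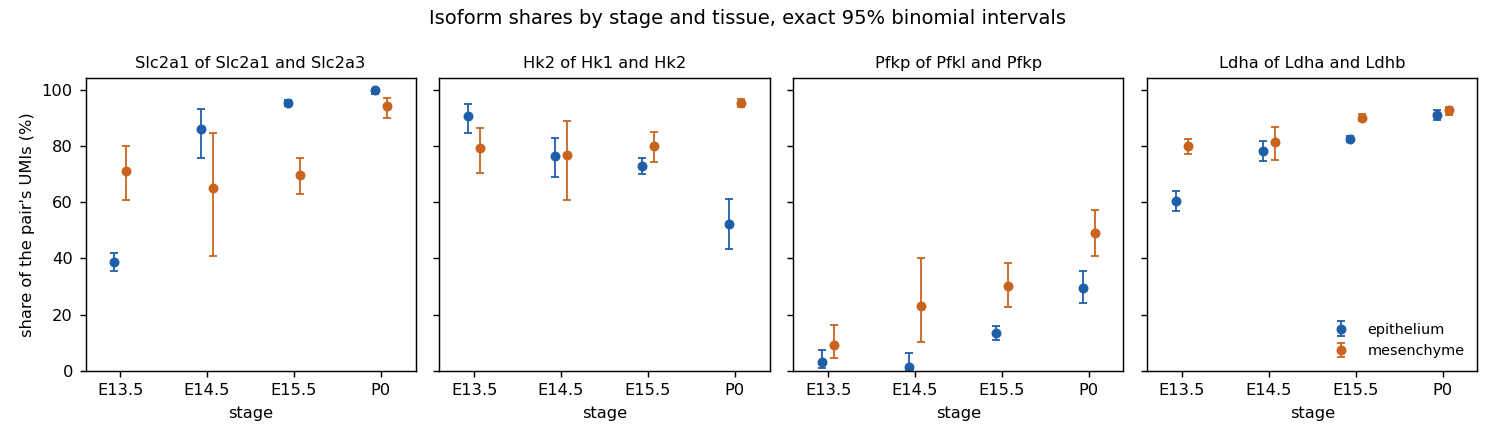
Each panel plots, by stage, the share in % of a pair's UMIs that came from the first gene named, for epithelium (blue) and mesenchyme (orange), with exact 95% binomial intervals. The epithelial Slc2a1 share is 38.6% at E13.5 (86.5% in its bud-marker cells, not drawn) and 247 of 247 UMIs at P0, and the Hk2 shares of P0 stand at 52.3% in epithelium and 95.3% in mesenchyme.

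The Hk2 of newborn mesenchyme was spread over many cells. A UMI was found in 197 of the 273 cells (72.2%), 15 cells had 10 or more, and the 27 cells with most held 313 of 815 UMIs. At 5000 UMIs per cell, 56.8% (50.7 to 62.7) of P0 mesenchymal cells had a UMI of Hk2 against 14.3% (10.1 to 19.6) of P0 epithelial cells and 12.7% (9.07 to 17.2) of E15.5 mesenchymal cells. Before thinning the last 2 shares were 22.2% and 38.2%. Divided by markers of 3 fibroblast kinds, Hk2 was at 265 CPM (234 to 298) in the 97 Pi16-marker cells, 427 (383 to 476) in the 92 Col15a1-marker cells and 309 (269 to 354) in the 79 Eln-marker cells. Every one of these levels exceeded that of any embryonic group.

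Transcripts of other cell types and of cell stress moved with the P0 mesenchyme. Transcripts of the blood and immune list were at 8269 CPM, and 4 cells held at least 50 haemoglobin UMIs, without which Hk2 was at 329 CPM. Of the endothelial list, Tek and Pecam1 were at 61.0 and 33.9 CPM there, against at most 13.1 in any other group, while Cdh5 and Emcn were at 0 UMIs and Kdr at 3 UMIs, below its 74 UMIs (10.2 CPM) in E15.5 mesenchyme. Hk2 was at 381 CPM in the 157 cells without a UMI of the endothelial list and at 259.6 CPM in the 116 with one, and in the 84 cells without a UMI of any of the endothelial, blood, nerve, muscle or melanocyte lists it was at 341 CPM. Fos and Egr1 were at 845 and 782 CPM in P0 mesenchyme, above every other group, whereas the heat shock gene Hspa1a, at 163 CPM, was below the 1178 to 1689.6 CPM of embryonic mesenchyme. The 136 cells with the summed stress list above the median held less Hk2 than the 137 others, 240.3 against 414 CPM (ratio 0.580, 0.502 to 0.670). The part of early response transcripts in the level was not tested.

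**Figure D4:**
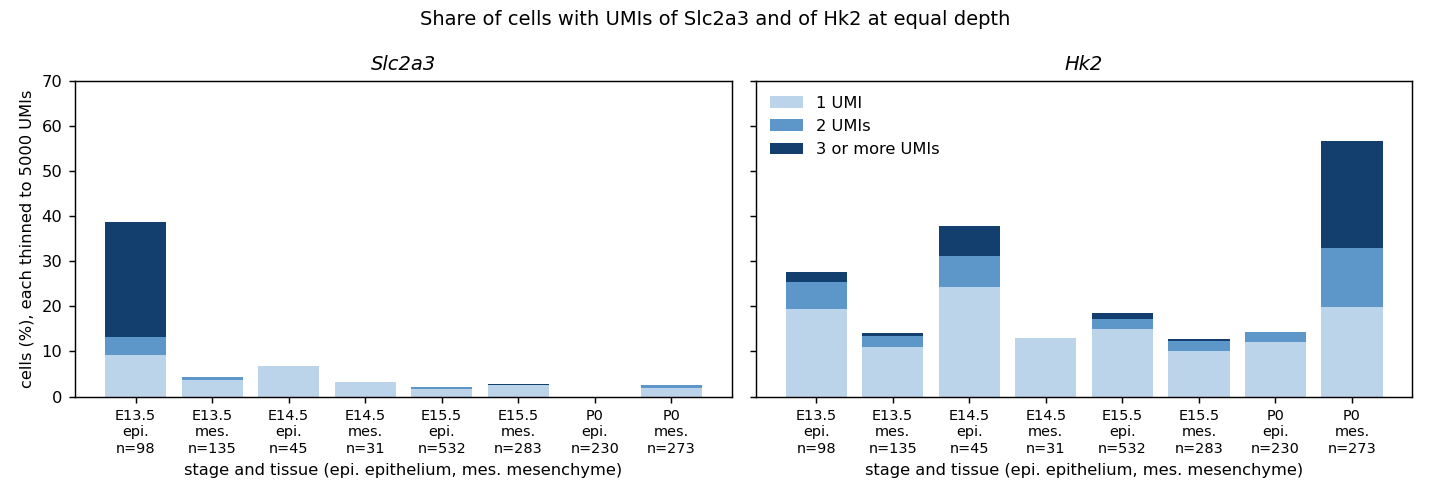
Bars give the share of cells in % (y axis) with 1, 2 or at least 3 UMIs of Slc2a3 (left) or Hk2 (right) after each cell was thinned to 5000 UMIs, by stage and tissue (x axis, with the number of cells). Slc2a3 is found in 38.8% of E13.5 epithelial cells and Hk2 in 56.8% of P0 mesenchymal cells.

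Pfkl (chr10:77986947-78010083, minus strand) was the main phosphofructokinase of the epithelium. Its level there was 72.0, 65.2, 45.6 and 72.7 CPM from E13.5 to P0. In mesenchyme it was 41.1, 32.2 and 29.9 CPM at E13.5, E14.5 and P0, and the E15.5 mesenchyme (102 UMIs, at most 17.1 CPM) lay below all other groups. Pfkp (chr13:6579768-6648777, minus strand), the platelet-type isoform, was low before birth, at 0.785 to 9.55 CPM in the 6 embryonic groups, and reached 30.6 CPM (24.3 to 38.1) in P0 epithelium and 28.7 (22.5 to 36.2) in P0 mesenchyme. Its share of the Pfkl and Pfkp UMIs was 3.29%, 1.19%, 13.3% and 29.6% in epithelium from E13.5 to P0, and 9.17%, 22.9%, 30.1% and 49.0% in mesenchyme. This pair leaves out the isoform Pfkm. Of the Pfkl, Pfkm and Pfkp UMIs, Pfkm made up 28.8%, 36.4%, 34.8% and 19.2% in mesenchyme and 7.27% to 16.0% in epithelium. Counted so, Pfkp made up 19.6% in E15.5 and 39.6% in P0 mesenchyme. Pfkl had the largest share in mesenchyme too, at 64.7%, 49.1%, 45.5% and 41.2%. After E13.5 its interval there overlapped that of the next isoform. In P0 mesenchyme Pfkp was at 50.4 CPM (37.5 to 66.2) in Pi16-marker cells and 7.59 (2.78 to 16.5) in Col15a1-marker cells, the reverse of the order of Hk2.

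Aldoa (chr7:126795234-126800751, minus strand) reached its highest levels at birth in both tissues. It was at 309, 296, 341 and 519 CPM in epithelium and at 264, 163, 199 and 494 CPM in mesenchyme, from E13.5 to P0. The P0 levels of the tissues (492 to 547 and 467 to 522) did not differ beyond counting error and lay above all embryonic levels. Pgk1 (chrX:106187100-106203699, plus strand) was at 217, 203, 221 and 392 CPM in epithelium and at 215, 132, 106 and 193 CPM in mesenchyme. It peaked in P0 epithelium, and its P0 mesenchymal level was no higher than that of E13.5 mesenchyme.

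Pkm (chr9:59656368-59679375, plus strand) and Ldha (chr7:46841475-46855627, plus strand) went different ways in the newborn mesenchyme. Pkm had the highest CPM of the 10 genes in each of the 6 embryonic groups, at 602, 473 and 493 CPM in epithelium and 463, 247 and 254 CPM in mesenchyme. At P0 it was at 436 CPM in epithelium (411 to 462) and at 110.5 in mesenchyme (97.8 to 124), the lowest of its 8 levels. Ldha was at 211, 312, 243 and 346 CPM in epithelium and at 303, 181, 219 and 433 CPM in mesenchyme, and the P0 mesenchyme (407 to 459) was its highest. The M1 and M2 forms of pyruvate kinase come from the same gene and cannot be told apart in counts of its 3′ end. Aldoa, Pgk1, Pkm and Ldha have processed copies elsewhere in the genome. Reads shared with such copies could be left out of these counts, so their absolute levels are uncertain. The E15.5 counts came from another software version and gene list, and whether such losses differed between libraries was not tested. Exons of Slc2a1, Hk1, Pfkp and Aldoa also overlap a gene on the opposite strand (Gm12868, Hk1os, Pitrm1 and Fam57b), and the strand setting of the counting was not given in the sources used here.

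The Ldha share of the lactate dehydrogenase pair was larger in the later libraries. Ldha made up 60.4% of the Ldha and Ldhb UMIs in E13.5 epithelium (56.7 to 64.0), then 78.3%, 82.4% in E15.5 and 91.1% in P0 epithelium (89.2 to 92.8). In mesenchyme it was 80.0% (77.2 to 82.5), 81.3% (74.9 to 86.6), 90.1% (88.7 to 91.5) and 92.6% (90.9 to 94.0). There the intervals of E13.5 and E14.5 overlapped, as did those of E15.5 and P0. Ldhb, the isoform of heart muscle, was at 138, 86.4, 51.8 and 33.7 CPM in epithelium over the same stages. At E13.5 the epithelium lay below the mesenchyme, and at P0 the intervals overlapped.

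The tissues were compared at each stage by the ratio of CPM in epithelium over mesenchyme. A gene was called higher or lower where the ratio was at least 1.5-fold either way and its exact conditional binomial interval left out 1, among genes with a mean of at least 10 CPM over the groups compared. No p-value was computed, since cells of a library are not replicates. At E13.5, 8 of the 10 genes were tested (not Hk1 and Pfkp) and 4 were called higher in epithelium and 0 lower, against 15.9% and 26.8% of 8425 genes tested. They were Slc2a3 with a ratio of 25.3 (17.2 to 38.8), Slc2a1 with 6.52 (5.01 to 8.61), Hk2 with 1.81 (1.37 to 2.39) and Pfkl with 1.75 (1.35 to 2.28). In the 48 bud-marker cells, a comparison added after these values were seen, the ratio over mesenchyme was 5.55 (4.14 to 7.51) for Slc2a1 and 2.12 (1.18 to 3.79) for Slc2a3. Hk2, at 1.38 (0.962 to 1.96), and Pfkl, at 1.34 (0.953 to 1.87), were not called there. In the 28 bud-marker cells of the division in 3, the interval of the Slc2a3 level included the mesenchymal 11.2 CPM. Slc2a3 is therefore not shown to be higher than mesenchyme in those cells. In all epithelium Pkm (1.30), Aldoa (1.17) and Pgk1 (1.01) were under the limit, and Ldha had a ratio of 0.695 (0.615 to 0.784). Hk2 was not called when cells with a UMI of the proliferation genes Mki67 or Top2a were left out (log2 ratio 0.43). Over the 8 genes the median log2 ratio was 0.59, against -0.12 over all genes tested.

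At E14.5, 8 of 8 genes tested (not Slc2a3 and Pfkp) were called higher in epithelium and 0 lower, against 18.4% and 22.3% of 8818 genes. Their ratios ran from 1.54 for Pgk1 (1.22 to 1.94) to 3.09 for Slc2a1 (1.68 to 6.13). This was the smallest library, and with every cell thinned to 5000 UMIs 2 of the 8 calls, those of Hk2 and Pkm, were made. At E15.5, the deepest library, 7 of 8 genes tested were called higher and 0 lower, against 24.0% and 27.5% of 7885 genes, with ratios from 1.71 for Aldoa (1.62 to 1.82) to 5.21 for Slc2a1 (4.38 to 6.24). Ldha, the exception, had a ratio of 1.11 (1.05 to 1.18). The median log2 ratio of the genes tested was 0.98 at E14.5 and 1.01 at E15.5, against 0.01 and -0.03 over all genes. The epithelium of these stages also held epidermal transcripts, with Krt1 at 79.3 and 113 CPM and Krt10 at 134 and 194 CPM. No skin cells were taken out, and their part in these calls was not tested.

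At P0 genes were called in both directions. Of 9 genes tested (not Slc2a3), 4 were called higher in epithelium and 1 lower, against 37.6% and 22.7% of 7730 genes. Pkm had a ratio of 3.95 (3.46 to 4.52), Pfkl 2.43 (1.85 to 3.22), Pgk1 2.03 (1.82 to 2.26) and Hk1 1.51 (1.00 to 2.30), the last at the limit of the rule. Hk2 had a ratio of 0.0812 (0.0626 to 0.104). Slc2a1, 3.09-fold to 6.52-fold higher in epithelium at the embryonic stages, had a ratio of 1.33 (1.09 to 1.62). The median log2 ratio of the 9 genes was 0.41 and that of all genes was 0.33. With the ratios centred on the latter, 45.3% of all calls were higher instead of 62.4%, Hk1 was no longer called, and Ldha, at a log2 ratio of -0.66, was called lower beside Hk2.

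**Figure D5:**
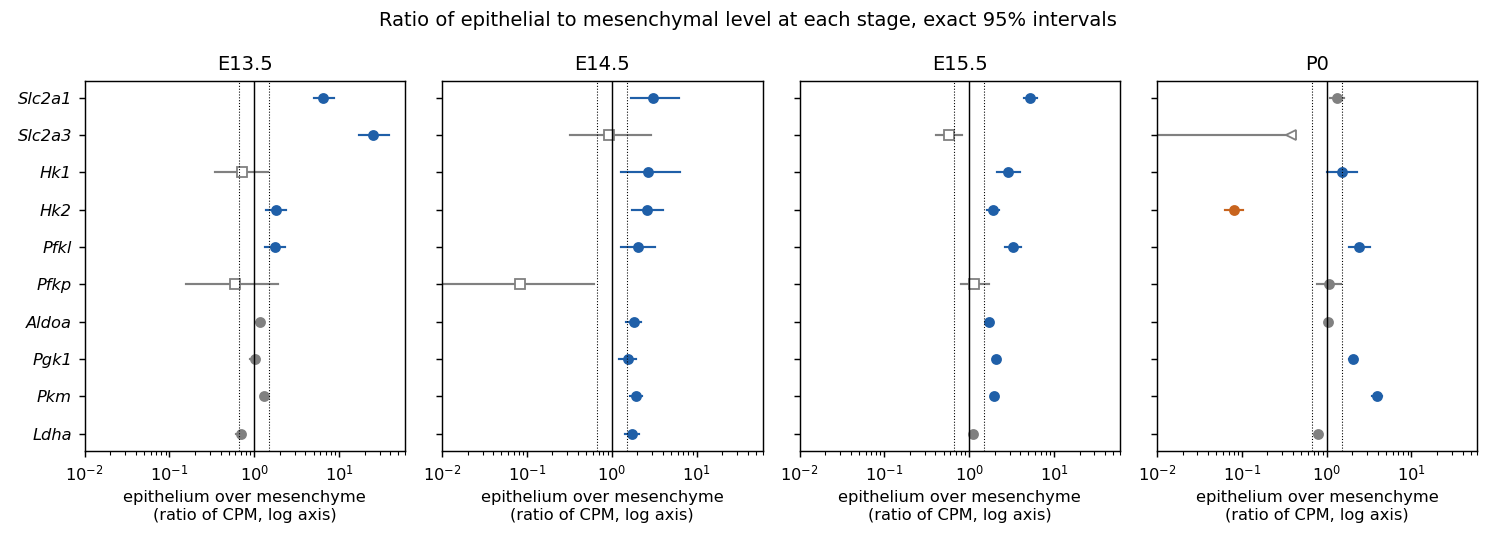
Each panel is a stage, with the ratio of epithelial to mesenchymal CPM on a log x axis and the 10 genes on the y axis. Points are ratios with exact 95% intervals, blue where called higher in epithelium, orange where called lower and grey where not called. Open squares mark genes under the level asked of a tested gene, the open triangle is the upper limit for Slc2a3 at P0 (0 UMIs in epithelium), and dotted lines mark 1.5-fold. At E14.5 and E15.5 the tested genes lie at or right of parity, and at P0 Hk2 lies far left, at 0.0812.

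The epithelial cells of the E15.5 library held fewer transporter and Pfkl transcripts than those of the E13.5 library, and more of Hk1. Of 9 genes tested there, 1 was called higher and 3 lower, against 21.6% and 23.5% of 7643 genes. Slc2a3 had a ratio of E15.5 over E13.5 of 0.0175 (0.0135 to 0.0224), Slc2a1 0.570 (0.508 to 0.641) and Pfkl 0.634 (0.529 to 0.763), and Hk1 rose 2.82-fold (1.65 to 5.22). Over the 9 genes the median log2 ratio was -0.29 against -0.04 over all genes. The marker makeup differed between these libraries, and all 6 proliferation genes of a list (such as Mki67 and Top2a) were called lower at E15.5. Pfkl was not called without the cells that held these 2 (log2 ratio -0.50). Of the 4 periderm genes that marked the Slc2a3 cells, Gabrp (ratio 0.00281) and Hopx (0.0431) were called lower at E15.5, Krt4 was called higher, with 68.5 against 5.88 CPM, and Krt17 stood at 633 against 669.6 CPM. The epidermal Krt1 and Krt10 were called higher. The share of periderm cells and the level per cell cannot be told apart in the summed counts. In the 28 bud-marker cells of the E13.5 division in 3 Slc2a1 was at 102 CPM, the same as in all epithelium of E15.5. The 48 bud-marker cells of the division in 2 stood higher, with 160 Slc2a1 UMIs among 1052106. The Hk1 ratio rested on 14 UMIs at E13.5. Of the hexokinase pair's UMIs at E13.5, Hk2 held 26 of 34 in the 28 bud-marker cells and 69 of 71 in the 29 periderm-marker cells. Pfkl was also lower in those bud-marker cells than in the periderm-marker cells. The part of skin cells in the Hk1 and Pfkl calls was not tested.

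In mesenchyme, of 7 genes tested between the same stages, 0 were called higher and 3 lower, against 10.8% and 22.4% of 8317 genes. Pfkl had a ratio of 0.342 (0.257 to 0.455), Pgk1 0.492 (0.439 to 0.550) and Pkm 0.548 (0.509 to 0.591). The median log2 ratio of the 7 genes was -0.49 and of all genes -0.15, and centred on the latter 48.1% instead of 32.6% of all calls were higher, with the same 3 of these genes called. Muscle transcripts differed in the same comparison, as Actc1 and Myog were at 69.8 and 22.0 CPM in E13.5 mesenchyme and at 0 and 0.138 CPM at E15.5. Few cells held them at E13.5, where the highest cell had 136 of 168 Actc1 UMIs and 52 of 53 Myog UMIs. In the 99 E13.5 cells without a UMI of the muscle and pericyte list Pkm was at 476 CPM, against 463 in all 135 cells.

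From E15.5 to birth most of the 10 genes rose in mesenchyme. Of 9 genes tested, 8 were called higher and 1 lower, against 19.6% and 39.7% of 7908 genes. Hk2 rose 12-fold (10.3 to 14.1), Pfkp 4.74-fold (3.21 to 7.06), Slc2a1 3.63-fold (2.89 to 4.56) and Aldoa 2.48-fold (2.30 to 2.68). Hk1, Pfkl, Ldha and Pgk1 rose 2.36-, 2.13-, 1.97- and 1.83-fold, and Pkm fell, with a ratio of 0.435 (0.382 to 0.493). The median log2 ratio of the 9 genes was 1.24 and of all genes -0.37. Centred on the latter, the share of higher calls among all calls was 52.9% instead of 33.1%, and the same 8 genes were called higher and Pkm lower. All 6 proliferation genes were called lower in the same comparison, and the part of cell division in these changes was not tested.

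In epithelium, of 9 genes tested between E15.5 and P0, 4 were called higher and 1 lower, against 20.8% and 26.6% of 7526 genes. Pfkp rose 4.37-fold (3.22 to 5.93), Pgk1 1.77-fold (1.65 to 1.90), Pfkl 1.59-fold (1.35 to 1.88) and Aldoa 1.52-fold (1.43 to 1.62), and Hk2 fell, with a ratio of 0.508 (0.391 to 0.650). Slc2a1 had a ratio of 0.927 (0.807 to 1.06). Slc2a3, under the level asked of a tested gene, had 0 UMIs at P0 against 71 (4.97 CPM) at E15.5, and the interval of its ratio reached up to 0.292. Hk2 was not called after thinning (log2 ratio -0.55). The median log2 ratio was 0.51 against -0.10 over all genes, and centred on the latter Ldha, at 0.61, was called higher too. Pfkp rose in both tissues, while Hk2 fell in epithelium and rose in mesenchyme. The marker makeup of the epithelium differed between these libraries too. The epidermal Krt1 was at 113 CPM at E15.5 and 1.53 at P0, and Krt10 at 194 and 7.27 CPM. The part of skin cells in the epithelial calls was not tested.

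Within the E15.5 epithelium, the cells with luminal markers held more of the later enzymes than the cells with basal markers. In 167 luminal-marker and 365 basal-marker cells, Ldha was at 349 and 189 CPM (ratio 1.85, 1.73 to 1.98), Aldoa at 436 and 293 (1.49, 1.40 to 1.57), Pkm at 622 and 427 (1.46, 1.39 to 1.53) and Pgk1 at 273 and 195 (258 to 288 and 186 to 204). Pfkl was also higher, at 57.2 and 39.7 CPM (1.44, 1.23 to 1.69). The transporter and the hexokinase did not share this. Slc2a1 was at 103 and 101 CPM, and Hk2 was lower in luminal-marker cells, at 42.6 against 56.8 CPM (ratio 0.749, 0.635 to 0.882). The luminal list holds Krtdap, a gene of differentiating epidermis, and the luminal-marker cells held Krt1 at 326 CPM and Krt10 at 521 CPM against 4.65 and 26.1 in the basal-marker cells. The study took out contaminating skin cells before it grouped its epithelium, and no such step was made here. The share of skin cells in the luminal-marker group was not tested. Among the 55 luminal-marker and 175 basal-marker cells without a UMI of Krt1 or Krt10, chosen after these values were seen, the ratio was 1.40 (1.23 to 1.60) for Ldha, 1.33 (1.21 to 1.45) for Pkm and 1.25 (1.13 to 1.39) for Aldoa. For Pgk1 it was 1.08 (0.941 to 1.24), and Pfkl was at 44.5 and 44.4 CPM. Hk2 was lower in these luminal-marker cells too, with a ratio of 0.654 (0.462 to 0.909). With Krtdap left out of the list the Ldha ratio was 1.75 (1.63 to 1.87). The full groups had median depths of 26707 and 23980 UMIs, and 36 and 53 of their cells lay within 2-fold of the other marker sum. At P0 the same genes were closer, as Ldha was at 353, 354 and 306 CPM and Aldoa at 519.9, 532 and 498 CPM in the luminal progenitor-, mature luminal- and basal-marker cells.

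The mesenchymal divisions differed in fewer genes. At E15.5 Pkm was 1.39-fold (1.25 to 1.55) and Pgk1 1.29-fold (1.10 to 1.52) higher in the 178 sub-epithelial-marker than in the 105 dermal-marker cells, and Slc2a1 was lower, with a ratio of 0.685 (0.484 to 0.976). In P0 mesenchyme the Pi16-marker cells held 2.12-fold (1.54 to 2.96) the Pkm and 1.84-fold (1.46 to 2.35) the Pgk1 of the Col15a1-marker cells. Aldoa was at 482, 484 and 522 CPM and Slc2a1 at 68.1, 70.8 and 75.4 CPM in the Pi16-, Col15a1- and Eln-marker cells, with overlapping intervals.

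Other enzymes of glycolysis were read beside the 10 genes from a list of 13. From E15.5 to P0, 4 of its 7 tested genes were called higher and 2 lower in epithelium, and 2 of 7 higher and 0 lower in mesenchyme. Of all genes 20.8% were higher and 26.6% lower in that epithelium, and 19.6% and 39.7% in that mesenchyme. Gpi1, which turns glucose 6-phosphate into fructose 6-phosphate, rose 1.79-fold (1.60 to 2.01) in epithelium and 3.11-fold (2.74 to 3.54) in mesenchyme. Gapdh, the most abundant enzyme of the list, was at 1404 CPM in E13.5 epithelium and at 1058 and 599.7 CPM in P0 epithelium and mesenchyme. From E13.5 to E15.5, 4 of 6 and 6 of 7 tested genes were called lower in epithelium and mesenchyme, Gapdh with ratios of 0.498 (0.478 to 0.519) and 0.413 (0.395 to 0.433) and Eno1 with 0.597 and 0.522. Of all genes 23.5% and 22.4% were called lower in these comparisons. Of the 5 enzymes that set the phosphofructokinase activator fructose 2,6-bisphosphate, at most 1 was tested in a comparison, Pfkfb3.

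Genes that carry lactate and genes known as targets of hypoxia-inducible factor were high in the same P0 mesenchyme as Hk2. Between E15.5 and P0, 4 of 9 tested genes of lactate and pyruvate handling were called higher there and 1 lower, against 19.6% and 39.7% of all genes. The lactate exporter Slc16a3 rose 23.3-fold (14.2 to 40.5), to 57.8 CPM, and Slc16a1 3.07-fold (2.40 to 3.92), to 55.8 CPM, while in epithelium Slc16a1 fell to 4.59 CPM. Of 14 tested genes of the hypoxia list, 8 were called higher and 0 lower, with a median log2 ratio of 0.98 against -0.37 over all genes. They included Bnip3, a mitochondrial protein of hypoxia (13.6-fold, 10.3 to 18.2), Vegfa, the vascular growth factor (4.07-fold, 3.64 to 4.54), and the collagen prolyl hydroxylases P4ha2 (3.58-fold) and P4ha1 (3.38-fold). Hif1a itself was at 132 CPM in P0 mesenchyme and 101 CPM at E15.5 and was not called. The P0 epithelium, where Hk2 fell, held more of some of these genes than at E15.5 and less of others. There 4 of 12 tested genes of the list were called higher and 5 lower, against 20.8% and 26.6% of all genes. The higher ones were Vegfa (3.08-fold, 2.68 to 3.53), Ero1l (2.92-fold), Ndrg1 (2.70-fold) and Bnip3 (1.88-fold). The lower ones were Adm (ratio 0.232), Bnip3l (0.412), Egln1 (0.509), P4ha1 (0.536) and Hif1a (0.599). Ndrg1, Mif, Ero1l and Epas1 were called higher in the epithelium than in the mesenchyme of P0 (2.41-, 1.85-, 1.67- and 1.64-fold). More genes of the list were called lower there. They were P4ha2 (ratio 0.0494), P4ha1 (0.0573), Adm (0.203), Bnip3 (0.256), Vegfa (0.404), Egln1 (0.419), Arnt (0.463) and Higd1a (0.478). Of all genes 37.6% were called higher and 22.7% lower in that comparison. In single cells the relation was uneven. The 136 P0 mesenchymal cells with the hypoxia list above the median held more Ldha than the 137 others, 544 against 308 CPM (ratio 1.76, 1.55 to 2.01), but not more Hk2, 299 against 355 CPM (0.842, 0.732 to 0.968).

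Genes of branches away from glycolysis were called in both directions. In P0 mesenchyme against E15.5, 6 of 12 tested genes of the pentose phosphate and glycogen list were called higher and 3 lower, against 19.6% and 39.7% of all genes. The glycogen phosphorylase Pygl rose 9.35-fold (6.35 to 14.1) and Ugp2, which makes the glucose donor of glycogen and glycoproteins, 3.03-fold (2.74 to 3.36). Of the pentose phosphate pathway, Tkt, Taldo1 and Pgls were called lower and Pgd was called higher (2.24-fold, 1.75 to 2.87). Growth regulators were also called in both directions from E15.5 to P0. Myc was called higher in both tissues, at 174 CPM in epithelium and 215 CPM in mesenchyme at P0. Mycl was called lower in epithelium (ratio 0.0473, 0.0251 to 0.0811). In mesenchyme Mlxip and Akt2 were called higher too, and Txnip (0.231, 0.193 to 0.275), Arrdc4 and Mycn lower. Mycn was at 0 UMIs in both tissues at P0.

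The genes with the pattern most like that of a transporter or hexokinase were sought by Pearson's r over the 8 groups, on log2(CPM + 10), among 3111 genes with a mean of at least 50 CPM. The points share libraries in pairs and r is a description. For Slc2a3 it was highest for Cyp1a1 (r = 0.969), a cytochrome P450 that was at 549 CPM in E13.5 epithelium and at most 9.42 in any other group, followed by Ccdc186, Pigx, Oxct1 and Ubqln2 (0.896 to 0.783). Cyp1a1 passed the level filter through that group alone, where Slc2a3 was high too, so their r rests mainly on it. For Hk2 r was highest for Fam162a (0.942), Higd1a (0.922), Hspg2 (0.915), Etfa (0.911) and Sema3c (0.905). Hspg2 passed the filter through P0 mesenchyme alone, at 249 CPM against at most 45.6 elsewhere. For Slc2a1 r was highest for Map1lc3b, Sdf2, S100a11, Atl2 and S100a14 (0.946 to 0.898). The summed level of the 10 genes, 1949, 1529, 1529.6 and 1941 CPM in epithelium and 1376, 836, 860.3 and 1706 CPM in mesenchyme from E13.5 to P0, was most like Chchd7, Ptpn2, Sdf2, Atp6v0b and Slc3a2 (0.918 to 0.891).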

How the data were processed

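For each stage the authors deposited raw UMI counts per gene and barcode (10x 3′ v3.1), unnormalized and aligned to mm10. By the file headers the E15.5 table came from Cell Ranger 3.1.0 and the other 3 from 6.0.0. Its gene list differs, so genes were matched by Ensembl identifier (Aldoa has 2, the second at 0 UMIs). Gene positions are from GENCODE on GRCm38.

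The study's limits on UMIs and mitochondrial share were applied. At every stage they left more cells here than the study counted, and the cause was not tested. UMIs were summed per stage and tissue and given as CPM with exact intervals (Poisson for levels, conditional binomial for ratios, Clopper-Pearson for shares). UMIs count molecules, so no length correction was made. Doublets were gated out at the sort and no doublet caller was run. The call rule was tested on simulated Poisson counts without variation between cells or libraries, so that test covers counting error only. Python 3.11.15, numpy 2.4.6 and scipy 1.17.1 were used.

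The 10 genes and all lists were chosen with earlier results of these data known. From each other list the genes with the highest level or largest called ratio were named, at most 4, with the 5 genes most like each pattern. Other names (Hif1a, Mycn, Mycl, Txnip, Mlxip, Akt2, Arrdc4, Tkt, Taldo1, Pgls, Pgd, Slc2a4, Tek, Pecam1, Kdr, Ero1l, Ndrg1, Mif, Epas1, Arnt, Egln1, Adm, Bnip3l, Higd1a, Pfkm) were chosen after values were seen. So were the division of E13.5 epithelium in 3, the bud-marker comparison and the Krt1, Krt10 and Krtdap checks. Not every gene of the lists is reported here. Alternatives are in the closing section.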

Additional observations from a re-analysis of the deposited data

Results flagged for a closer look

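Hk2 differed between the tissues in opposite directions at different stages. Its log2 ratio of epithelium over mesenchyme was 0.86, 1.40 and 0.95 on the 3 embryonic days in order, and -3.62 at P0. From E15.5 to P0 its log2 ratio was -0.98 in epithelium and 3.59 in mesenchyme. Each of these values passed the rule for a call, but the difference between stages or tissues was not tested, since each stage has 1 library.

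The barcodes that the filter removed also held transcripts of the 10 genes. Their summed level there from E13.5 to P0 was 1365, 1129.5, 1477 and 1418 CPM, against 1654, 1254, 1305 and 1826 CPM in the kept cells. The removed barcodes carried 9.44% to 18.6% mitochondrial UMIs per library.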

How the results depend on the processing

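Of 536 recomputed log2 ratios of single genes none reversed, 39 were no longer called, 19 of them at the 2-fold limit and 11 after thinning, and 5 became called. Of 192 recomputed isoform shares 8 left their counting interval, none of them of the transporter or hexokinase pair. A UMI minimum of 3000, a mitochondrial maximum of 10%, the strict tissue rule and leaving out haemoglobin-rich cells (chosen after seeing the data) changed no count of called genes beyond 1.5-fold, though Hk1 at P0 lost its call in 5 alternatives. With a 2-fold limit, the genes higher in epithelium numbered 2, 4 and 4 on the embryonic days in order, 1 was lower from E13.5 to E15.5 in epithelium, and from E15.5 to P0 in epithelium 1 was higher and 0 lower. Of all genes 9.34%, 12.6% and 13.8% were then higher on those days, and 11.4% were lower from E13.5 to E15.5 in epithelium. From E15.5 to P0 in epithelium 12.9% were higher and 13.6% lower. Thinning left 2 genes higher in E14.5 epithelium and 0 lower from E15.5 to P0 in epithelium, where Hk2 had a log2 ratio of -0.55. It removes most UMIs of the embryonic cells. Without cells with a UMI of Mki67 or Top2a, 1 gene (Ldha) was lower in E13.5 epithelium than in mesenchyme, and Hk2 was not called there (log2 ratio 0.43). For thinning and for this setting no share over all genes is given. Centring made the genes lower in P0 epithelium 2, against 29.4% of all genes. Without the filter on low levels the genes lower in epithelium numbered 1 at E14.5 (Pfkp), 1 at E15.5 (Slc2a3) and 2 in P0 (Slc2a3 and Hk2), 2 were higher from E13.5 to E15.5 in epithelium, and 2 were lower from E15.5 to P0 in epithelium and 2 in mesenchyme. Of all genes 16.1%, 24.1% and 16.4% were then lower in epithelium at E14.5, E15.5 and P0. From E13.5 to E15.5 in epithelium 12.2% were higher. From E15.5 to P0 16.4% were lower in epithelium and 24.2% in mesenchyme. At the depth of the E14.5 groups, a gene with 0 UMIs could be at up to 2.36 CPM in epithelium and 3.58 CPM in mesenchyme, and no setting replaces a second library. No paired analysis was possible because each stage has 1 library.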

Other observations

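Newborn epithelium held enzymes that were nearly missing before birth. Aldoc, the aldolase isoform of brain, was at 102 CPM there and at 0 to 10.2 CPM in the other groups, and was 10.4-fold (8.47 to 12.9) higher than in E15.5 epithelium. Fbp1, which opposes phosphofructokinase in gluconeogenesis, was at 52.0 CPM in P0 epithelium and at most 1.2 elsewhere. Within P0 epithelium they had different places. Fbp1 was at 128 CPM (103 to 157) in the mature luminal-marker cells, 28.3 (20.5 to 38.2) in the luminal progenitor-marker cells and 7.91 (1.63 to 23.1) in the basal-marker cells. Aldoc was at 55.5, 125 and 97.5 CPM in the same groups.

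Cells with a UMI of the proliferation genes Mki67 or Top2a differed from the others in some of the 10 genes. In mesenchyme Hk2 was lower in them, at 23.9 against 50.4 CPM at E13.5 (ratio 0.474, 0.294 to 0.748) and 19.3 against 35.1 CPM at E15.5 (0.550, 0.406 to 0.742). At P0, with 21 such cells, the ratio was 1.05 (0.808 to 1.35). Pgk1 was higher in the cycling epithelial cells of E13.5, at 253 against 158 CPM (1.60, 1.30 to 1.99), and of E14.5 (239 against 159.6 CPM), but not at E15.5 (1.01, 0.939 to 1.08). Its level also differed between the bud-, epidermis- and periderm-marker cells of E13.5. The part of marker makeup in the Pgk1 differences was not tested.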
